A study of Homo sapiens with 18 samples.

Results

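The 10 genes described here supply cells with serine, asparagine, folate-bound carbon units and imported amino acids, and all are known targets of the transcription factor ATF4. They were chosen by name, for these known roles and with earlier results of these data known, and are 10 of 25435 rows of a table of read counts per gene. PHGDH, PSAT1 and PSPH make serine, ASNS makes asparagine, and SHMT2 and MTHFD2 move carbon units from serine onto folate in mitochondria. SLC7A11, SLC7A5 and SLC6A9 carry amino acids across the plasma membrane. SLC3A2 is the chain that brings SLC7A11 and SLC7A5 there, and is counted here with the transporters. The cells were HEK293doxERN2, a line made from the human embryonic kidney line HEK293, in which doxycycline switches on a transgene for FLAG-tagged ERN2 (IRE1β). All 6 groups carried this transgene and had 3 libraries each. The No, Low and High ERN2 groups received 0, 10 and 100 ng/mL doxycycline for 24 hours, and each dose was given with vehicle (DMSO, the control groups) or with 200 nM thapsigargin (the stress groups) for 3 hours. Each dose of doxycycline came with its own level of ERN2, so the drug and the protein cannot be told apart in this design. The labels do not say whether the 3 libraries of a group came from separate cultures, so the p-values measure the spread between these libraries, which may be technical.

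Thapsigargin blocks the calcium pump of the endoplasmic reticulum (ER), and proteins then fold poorly there. The ER kinase PERK responds by phosphorylating the translation factor eIF2α, which slows protein synthesis while favouring translation of ATF4. ATF4 in turn activates genes for amino acid synthesis and import, a programme that lack of amino acids also switches on. ERN2 is a relative of the ER stress sensor ERN1 that is normally found in epithelia of the gut and airways. Like ERN1 it has an endonuclease domain that cleaves XBP1 mRNA for splicing and can degrade other mRNAs.

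Libraries held between 14876416 and 24652240 counts on genes, and all 10 genes passed the filter on low counts in each comparison. All 6 HEK293 markers checked were above 1 CPM (a gene's counts scaled to a common library size) in every library. Of 7 markers of colon epithelium, 5 stayed below 1 CPM in every library, and the exceptions CDX2 and LGR5 reached 8.94 and 36.0 CPM. These were checked because the extraction protocol in the labels names colon crypts. ERN2 itself was 7.92 ± 1.30 CPM in uninduced vehicle-treated cells (mean ± SD, n = 3), 35.7 ± 18.4 CPM at 10 ng/mL and 266 ± 36.1 CPM at 100 ng/mL, so its order followed the labels. Levels are CPM with TMM scaling over the 18 libraries. They are shares of the mRNA of a whole culture, in which fewer expressing cells and less RNA per cell cannot be told apart. A gene is said to have risen or fallen where the Benjamini-Hochberg adjusted p of edgeR's quasi-likelihood fit to all genes was below 0.01.

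In the thapsigargin-treated cells replicate 2 stood apart at 0 and at 10 ng/mL. It had the highest level of 9 of the 10 genes in each of these groups, and HSPA5, the main ER chaperone, was 4829 CPM in it against 3148 and 3085 CPM without doxycycline, and 4671 against 3123 and 2845 CPM at 10 ng/mL. Counts of genes called are therefore also given without replicate 2 of every group, a setting chosen after the data were seen.

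The start of 7 of the genes could be read from RefSeq promoter windows (GRCh38.p14, 250 bases before to 50 bases after a start, 10 windows in all), which were searched on both strands for 4 motifs. These windows bear on the results because the genes share a known regulator. The first was TGATGNAA, the form of the C/EBP-ATF response element that ATF4 binds with a C/EBP partner. It occurred in 2 of the 7 genes, ASNS and SLC3A2, in 2 of the 10 windows, and in 3.62% of the 35116 promoter windows of all genes. The other windows of ASNS and SLC3A2 held no match of it. The antioxidant response element core occurred in SLC3A2 and MTHFD2, in 2 of the 10 windows, against 4.75% of all windows. The ER stress element was in none of the 7 genes and in 0.0769% of all windows. CCACG, which is the end of that element and so overlaps it, was in 4 genes, in 5 of the 10 windows and in 38.1% of all windows. The sequences shown are the matches next to ASNS and SLC3A2, and the stretch before the start of SLC7A5, the gene that differed most with doxycycline, each 5′ to 3′ on the gene's strand with the match in capitals.
ASNS, chr7:97872458-97872487, minus strand, response element starting 68 bases before the start: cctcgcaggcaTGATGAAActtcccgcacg
SLC3A2, chr11:62881651-62881680, plus strand, antioxidant element starting 38 bases before the start: acgagggtggGTGACTCAGCgtcctccttc
SLC3A2, chr11:62881725-62881748, plus strand, response element read on the other strand, 38 bases into the transcript: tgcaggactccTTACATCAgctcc
SLC7A5, chr16:87869508-87869627, minus strand, CCACG starting 80 bases before the start: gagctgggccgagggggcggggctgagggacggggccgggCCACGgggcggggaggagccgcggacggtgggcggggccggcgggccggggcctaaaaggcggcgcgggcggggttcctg
A match is a run of letters, not a measured binding site, and a window without one says nothing of elements elsewhere in the gene. The SLC7A5 window held CCACG at this and another place and no match of TGATGNAA.

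Without doxycycline, thapsigargin raised 9 of the 10 genes within 3 hours, and their median log2 fold change, all 10 included, was 1.21. Of the 14397 genes tested, 6.45% rose and 4.74% fell, and the median over all of them was −0.01. SLC6A9 and SLC7A11 rose most, SLC3A2 rose 3.21-fold, and PHGDH was the gene that did not pass. The 3 thapsigargin libraries lay above the 3 vehicle libraries for all 10 genes, while groups lay apart upward for 19.8% of all genes. Without replicate 2 of every group 7 of the 10 rose, and SLC7A5 (adjusted p = 0.0358) and PSPH (adjusted p = 0.0101) no longer passed.

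**Figure D1:**
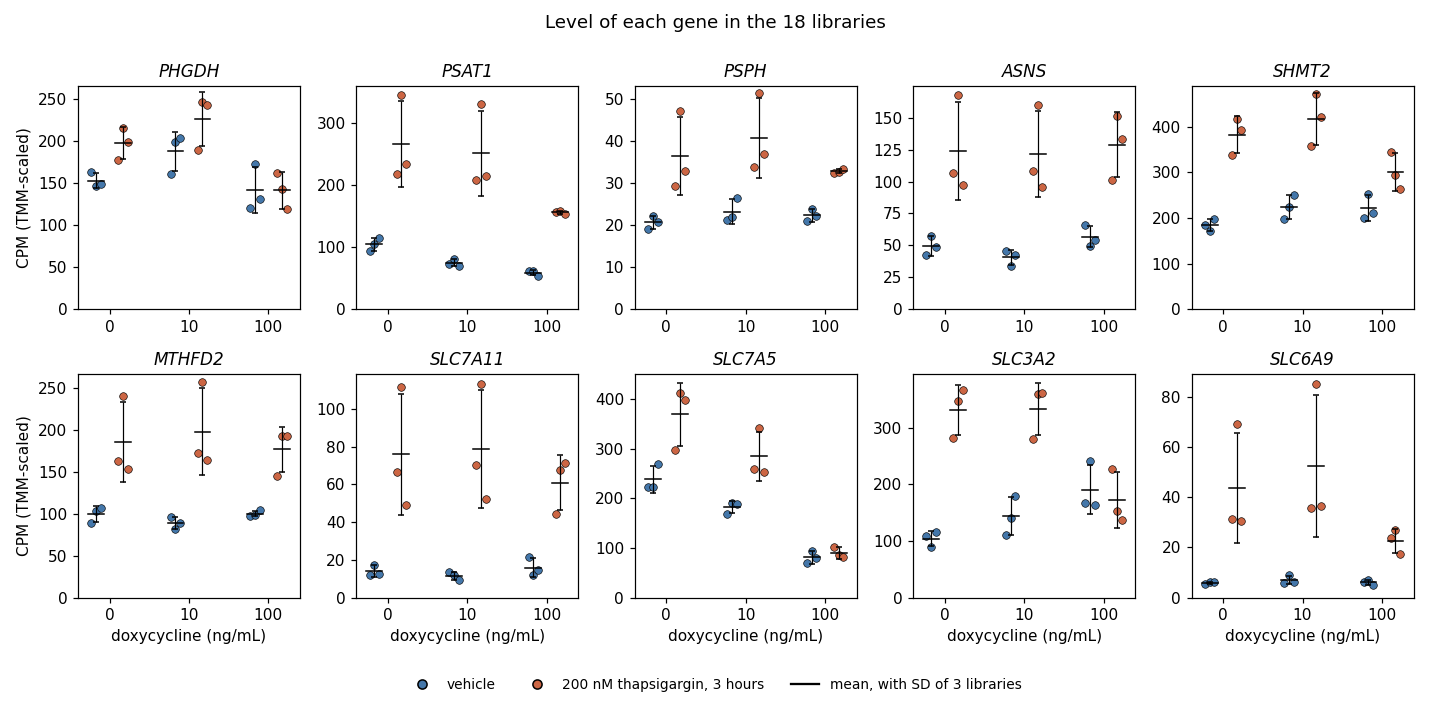
Level of each of the 10 genes in the 18 libraries, in TMM-scaled CPM (vertical axes, each from 0), by doxycycline dose in ng/mL. Blue points are vehicle and red points thapsigargin libraries, bars are means with the SD of 3 libraries. SLC7A5 is lowest at 100 ng/mL, at 81.5 CPM with vehicle and 90.1 CPM with thapsigargin, and SLC3A2 under thapsigargin falls from 332 to 172 CPM.

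The serine pathway starts with PHGDH, which draws the glycolytic intermediate 3-phosphoglycerate away by oxidizing it. PHGDH was 163, 146 and 149 CPM in the vehicle libraries and 178, 215 and 199 CPM in the thapsigargin libraries. These groups did not overlap, but the log2 fold change of 0.38 (SE 0.106, adjusted p = 0.0201) missed the threshold. PSAT1, the transaminase of the next step, was 93.4, 106 and 114 CPM with vehicle and 218, 345 and 234 CPM with thapsigargin, a 2.57-fold rise (adjusted p = 9.2e-05). PSPH, the phosphatase that releases serine, was 19.1, 22.2 and 20.7 CPM and then 29.3, 47.0 and 32.9 CPM, a 1.78-fold rise (adjusted p = 0.00384). The first enzyme thus differed least of the 3 and the second most.

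ASNS, which makes asparagine from aspartate and glutamine, was 42.4, 57.7 and 48.4 CPM with vehicle. With thapsigargin it was 107, 168 and 97.5 CPM, a 2.53-fold rise (adjusted p = 0.000357). SHMT2, the mitochondrial enzyme that splits serine into glycine and a folate-bound carbon unit, stood at 184, 171 and 197 CPM and then at 337, 418 and 394 CPM. It rose 2.10-fold (adjusted p = 3.44e-05). MTHFD2, which oxidizes that carbon unit, was 89.5, 103 and 107 CPM before and 164, 241 and 154 CPM after, a 1.88-fold rise (adjusted p = 0.00142). Replicate 2 was the highest thapsigargin library for all 3 of these enzymes.

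Among the transporters, SLC6A9, the glycine transporter GLYT1, was close to 6 CPM in each vehicle library (5.24, 6.11 and 6.09). It reached 31.5, 69.1 and 30.5 CPM with thapsigargin, a log2 fold change of 2.92 (SE 0.286, adjusted p = 2.1e-05), or 7.59-fold. SLC7A11, the light chain of the exchanger that imports cystine for glutamate, was 11.7, 17.5 and 12.6 CPM and then 66.7, 112 and 49.3 CPM. Its log2 fold change was 2.46 (SE 0.258, adjusted p = 3.94e-05), or 5.49-fold. SLC3A2 is the heavy chain 4F2hc, which brings SLC7A5, SLC7A11 and related light chains to the plasma membrane. SLC3A2 was 108, 88.9 and 115 CPM with vehicle and 282, 347 and 366 CPM with thapsigargin (log2 fold change 1.68, SE 0.130, adjusted p = 2.11e-06). SLC7A5, the light chain LAT1 that imports large neutral amino acids such as leucine, was 223, 223 and 269.8 CPM and then 297, 413 and 398 CPM. It rose least of the 4 transporters, 1.56-fold (adjusted p = 0.00443).

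**Figure D2:**
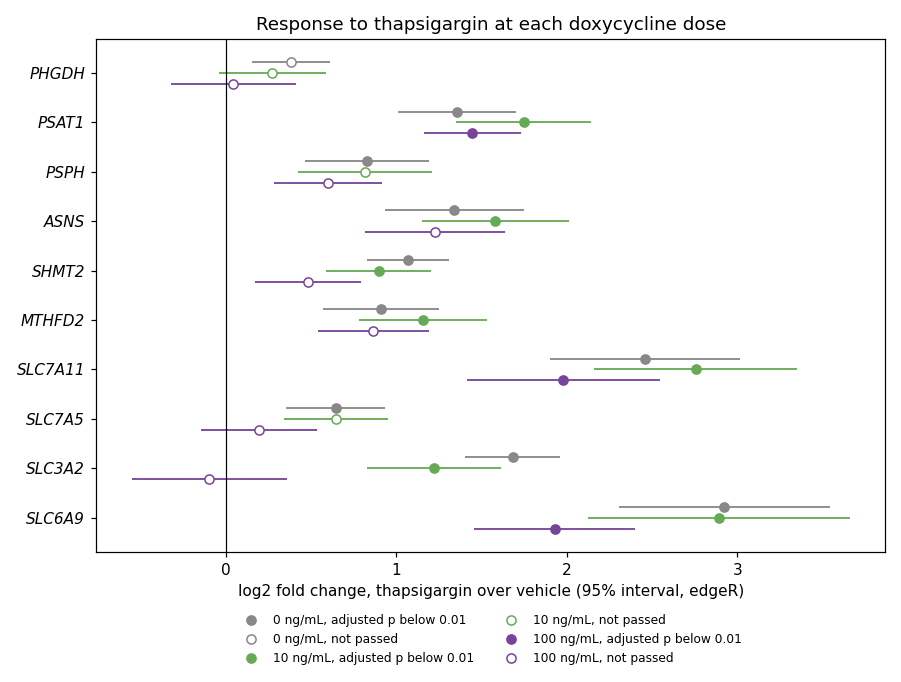
Log2 fold change of each gene, thapsigargin over vehicle, at 0 (grey), 10 (green) and 100 ng/mL doxycycline (purple), with 95% intervals from edgeR. Filled points have an adjusted p below 0.01. SLC3A2 goes from 1.68 at 0 to −0.10 at 100 ng/mL, while PSAT1 stays between 1.36 and 1.75.

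The other genes of these pathways came from lists written from general knowledge. Of 19 other serine, glycine and folate genes, MTHFD1L, the mitochondrial enzyme that releases formate, rose (log2 fold change 0.77), SFXN1, which carries serine into mitochondria, fell by 0.45, and 16 did not pass. Of 12 other amino acid synthesis genes 5 rose, among them CTH, which makes cysteine, by 2.16, and GPT2, a mitochondrial alanine transaminase, by 1.25. PYCR1, which completes proline synthesis, rose by 1.23 and CBS, which acts before CTH, by 0.82. Of 16 other plasma membrane amino acid transporters tested 3 rose, the arginine and lysine carrier SLC7A1 by 1.43, SLC1A4 by 1.21 and the glutamine carrier SLC1A5 by 0.64. Medians were −0.05 for the folate list, 0.34 for the synthesis list and 0.01 for the transporter list.

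ATF4 mRNA rose 2.43-fold, from 334 ± 42.0 to 807 ± 113 CPM (adjusted p = 2.54e-05), and DDIT3, which encodes the stress factor CHOP, rose 15.6-fold to 157 ± 1.42 CPM. Of 16 genes of the PERK-ATF4 pathway, ATF4 and DDIT3 included, 12 rose, and the median of the list was 2.06 on the log2 scale. CHAC1, which degrades glutathione, rose by 4.58, STC2, a secreted glycoprotein, by 2.88, and DDIT4, an inhibitor of mTORC1, by 2.52. SLC7A11 is also a target of NRF2, the regulator of antioxidant genes. Of 8 other NRF2 target genes 0 passed by edgeR or DESeq2, and their median was −0.20. By edgeR 2 of the 8 had an unadjusted p below 0.05, as did 5173 of all 14397 genes.

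At 10 ng/mL doxycycline, thapsigargin raised 7 of the 10 genes, while 1.16% of the 14607 genes tested rose and 0.294% fell. The median of the 10 was 1.19 and that of all genes −0.01. SLC6A9 was 5.93, 9.06 and 6.17 CPM with vehicle and 35.5, 84.9 and 36.4 CPM with thapsigargin (log2 fold change 2.89, adjusted p = 0.00157). SLC7A11 rose 6.75-fold (adjusted p = 0.000493), PSAT1 3.36-fold, ASNS 2.99-fold, SLC3A2 2.33-fold, MTHFD2 2.23-fold and SHMT2 1.86-fold. PSPH (1.76-fold, adjusted p = 0.0255), SLC7A5 (1.57-fold, adjusted p = 0.0228) and PHGDH (1.21-fold, adjusted p = 0.265) did not pass. Groups lay apart for 9 of the 10, PHGDH being the exception, and for 14.6% of all genes in the upward direction. This count fell most without replicate 2: it was 4 without the thapsigargin library of that number and 0 without the vehicle library. It was also 0 without replicate 2 of every group, where the largest log2 fold change was still 2.58 (SLC6A9, adjusted p = 0.0143). With all libraries kept it was 10 with replicate number as a block in the fit and 9 by DESeq2. It was 9 without the filter, 9 at an adjusted p of 0.05, 8 with all 6 groups in 1 fit and 7 with RLE size factors. The shares of all genes in these other fits are not reported here.

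A test of the difference between the responses at 10 and 0 ng/mL gave no call among the 10 genes. No gene of the 14857 passed by edgeR (0.00%), 664 had an unadjusted p below 0.05, none of them among the 10, and DESeq2 called 3 genes of all (0.0202%) and 0 of the 10. The differences of the 10 lay between −0.45 for SLC3A2 (95% interval −0.96 to 0.05) and 0.40 for PSAT1 (−0.16 to 0.96). For SLC6A9 the interval ran from −1.10 to 1.06, so a difference of 2-fold either way was not detectable with these libraries.

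At 100 ng/mL, 3 of the 10 genes passed, against 0.180% of the 14427 genes that rose and 0.0208% that fell, and the median of the 10 was 0.73 (−0.00 over all genes). PSAT1 was 61.9, 62.1 and 53.9 CPM with vehicle and 157, 159 and 154 CPM with thapsigargin, a log2 fold change of 1.45 (SE 0.128, adjusted p = 0.000916). SLC6A9 was 6.38, 7.01 and 5.01 CPM and then 23.6, 26.9 and 17.6 CPM, a 3.81-fold rise (adjusted p = 0.00397). SLC7A11 went from 21.3, 12.0 and 14.5 to 44.1, 67.5 and 71.3 CPM, a 3.95-fold rise (adjusted p = 0.00889). The transaminase of serine synthesis and the glycine and cystine carriers were thus the genes called.

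ASNS (log2 fold change 1.23, adjusted p = 0.0118), MTHFD2 (0.86, adjusted p = 0.0191), PSPH (0.60, adjusted p = 0.0486) and SHMT2 (0.48, adjusted p = 0.0818) lay apart between the groups without passing. That made 7 of 10 with thapsigargin libraries above all vehicle libraries, against 10.0% of all genes. PHGDH (0.04), SLC7A5 (0.19) and SLC3A2 (−0.10, and 0.16 without replicate 2 of every group) overlapped. The count of 3 was 0 without replicate 3 of the vehicle group, 0 without replicate 2 of the thapsigargin group, 1 without replicate 1 or 2 of the vehicle group, 6 without replicate 1 of the thapsigargin group and 0 without replicate 2 of every group. Of the PERK-ATF4 genes 7 of 16 rose, with a median of 1.07.

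SLC3A2 showed the widest gap between the response at 100 and at 0 ng/mL. In the High ERN2 groups it was 167, 240.3 and 164 CPM with vehicle and 228, 153 and 136 CPM with thapsigargin, and the groups overlapped. The difference between its responses was −1.70 (log2, SE 0.258, 95% interval −2.25 to −1.14), at an adjusted p of 0.0101 that just missed the threshold. Over its alternatives the adjusted p ran from 1.01e-06 by DESeq2 to 0.708 without replicate 2 of every group, where the difference was −1.33. It passed without replicate 1 of the High ERN2 stress group (−1.99, adjusted p = 0.000416). That library had the highest SLC3A2, the highest ERN2 (267 CPM against 169 and 167 CPM) and the highest ATF4 (865 CPM against 699 and 588 CPM) of its group; the part of these in the result was not tested.

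None of the 10 genes passed this test by edgeR, and DESeq2 called SLC3A2. An unadjusted p below 0.05 by edgeR was found for 3 of the 10 and for 3651 of all 14768 genes. Of the 14768 genes tested 0.0406% passed in either direction by edgeR and 2.00% by DESeq2. After SLC3A2 the lowest differences were −0.91 for SLC6A9 (95% interval −1.79 to −0.04, adjusted p = 0.187), −0.50 for SHMT2 (−0.87 to −0.13, adjusted p = 0.108) and −0.40 for SLC7A11 (−1.31 to 0.52). PSAT1 (0.17), MTHFD2 (0.04) and ASNS (−0.03) had the values nearest to 0 or above it, with intervals of −0.30 to 0.64, −0.48 to 0.56 and −0.69 to 0.63. The median of the 10 was −0.31, against 0.04 over all genes. The smaller number of genes called at 100 ng/mL is therefore not shown by edgeR, gene by gene, to be a different response. On simulated counts this test recovered 18.8% of 2-fold differences, so its lack of calls does not show equal responses either.

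Doxycycline at 100 ng/mL in vehicle-treated cells gave a mixed picture, in which SLC7A5 and PSAT1 were lower and SLC3A2 higher. At 100 against 0 ng/mL, 0.838% of the 14444 genes tested rose and 7.49% fell, and 1 of the 10 rose and 2 fell, at medians of 0.10 for the 10 and −0.01 for all genes. SLC7A5 was 223, 223 and 269.8 CPM without doxycycline and 69.4, 94.5 and 80.5 CPM at 100 ng/mL. It fell 2.92-fold (log2 −1.55, SE 0.134, adjusted p = 5.85e-06). PSAT1 fell 1.76-fold, from 105 ± 10.6 to 59.3 ± 4.69 CPM (log2 −0.82, SE 0.118, adjusted p = 0.000365). SLC3A2 rose 1.83-fold, from 104 ± 13.7 to 191 ± 43.1 CPM (log2 0.87, SE 0.156, adjusted p = 0.00189). The heavy chain and its light chain SLC7A5 thus moved in opposite directions, and each of the 3 calls held without any single library and without replicate 2 of every group. That of SLC3A2 was lost when replicate number entered the fit as a block (adjusted p = 0.0179).

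The other 7 genes had log2 fold changes between −0.11 (PHGDH) and 0.27 (SHMT2). ASNS was at 0.20 (95% interval −0.12 to 0.51) and MTHFD2 at 0.01 (−0.23 to 0.24). SHMT2 was higher in each library at 100 ng/mL (200.3, 253 and 212 CPM) than in any uninduced library without passing (adjusted p = 0.140). Groups lay apart in this way for 4 of the 10 genes and for 33.1% of all genes in either direction.

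**Figure D3:**
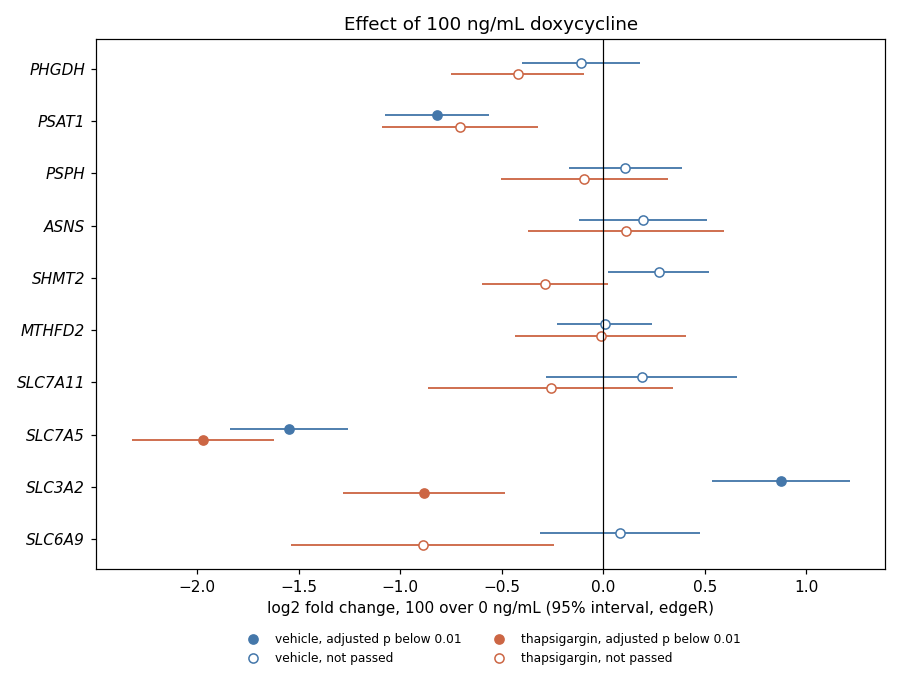
Log2 fold change of each gene, 100 over 0 ng/mL doxycycline, in vehicle-treated (blue) and thapsigargin-treated cells (red), with 95% intervals from edgeR. Filled points have an adjusted p below 0.01. SLC7A5 is at −1.55 and −1.97, while SLC3A2 is at 0.87 with vehicle and −0.88 with thapsigargin.

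At 10 ng/mL none of the 10 genes passed by edgeR or by DESeq2, against 0.193% of the 14497 genes by edgeR and 2.14% by DESeq2. An unadjusted p below 0.05 by edgeR was found for 5 of the 10 and for 4421 of all 14497 genes. SLC7A5 (168, 191 and 189 CPM, log2 −0.38, adjusted p = 0.0819) and PSAT1 (73.3, 81.4 and 70.6 CPM, log2 −0.48, adjusted p = 0.0727) lay below every uninduced library. SHMT2 lay above them (log2 0.29), which made 3 of 10 apart, against 29.8% of all genes. Without replicate 1 of the Low ERN2 control group 3 of the 10 passed. SLC3A2 was 111, 140.2 and 179 CPM in the libraries in which ERN2 was 23.0, 27.2 and 56.8 CPM, and overlapped the uninduced group (log2 0.46, adjusted p = 0.0936). Between 10 and 100 ng/mL, where 2.45% of 14549 genes passed, 1 of the 10 did, SLC7A5 at −1.15 (SE 0.125, adjusted p = 0.00233). This call was lost without Low ERN2 control replicate 2, without High ERN2 control replicate 3, and without replicate 2 of every group (−1.22, adjusted p = 0.0139).

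Of 16 amino acid transporters outside the 10 that were tested with vehicle, 7 fell at 100 ng/mL, none rose and 9 did not pass, while 7.49% of all genes fell. The median log2 fold change of the 16 was −0.49. SLC7A8, a further light chain that pairs with SLC3A2, fell by 1.31, the cationic carrier SLC7A2 by 1.18, the branched-chain amino acid carrier SLC6A15 by 1.14 and SLC1A4 by 0.90. The medians of the 12 synthesis genes and the 19 folate genes were 0.17 and 0.10. Of the PERK-ATF4 genes CHAC1 rose by 1.11, PPP1R15A, which restores translation, by 0.68 and DDIT3 by 0.67, while VLDLR, a lipoprotein receptor, fell by 0.89 and 12 did not pass. ATF4 mRNA was 334 ± 42.0 CPM without and 397 ± 53.0 CPM at 100 ng/mL (log2 0.25, adjusted p = 0.209). Of the 8 NRF2 target genes 0 passed by edgeR or DESeq2. By edgeR 0 of the 8 had an unadjusted p below 0.05, against 4237 of all 14444 genes.

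**Figure D4:**
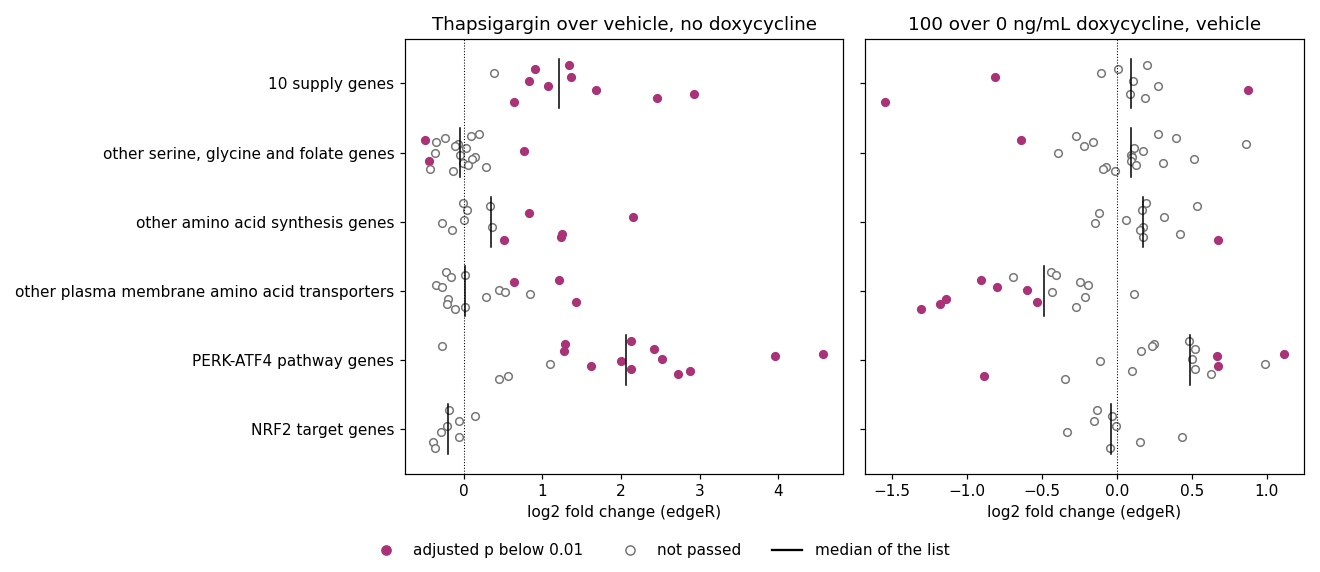
Log2 fold change of the 10 genes and of 5 lists of related genes, for thapsigargin over vehicle without doxycycline (left) and for 100 over 0 ng/mL doxycycline with vehicle (right). Each point is a gene, filled where its adjusted p is below 0.01, and the bar is the median of the list. The median of the other transporters is 0.01 on the left and −0.49 on the right.

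Under thapsigargin, 100 against 0 ng/mL doxycycline lowered SLC7A5 and SLC3A2. Of the 14358 genes tested 1.53% rose and 9.00% fell, and of the 10 none rose and 2 fell, with a median of −0.35 against 0.04 over all genes. SLC7A5 was 297, 413 and 398 CPM without doxycycline and 103, 85.7 and 81.7 CPM at 100 ng/mL, a 3.92-fold fall (log2 −1.97, SE 0.161, adjusted p = 7.35e-06). SLC3A2 was 282, 347 and 366 CPM and then 228, 153 and 136 CPM, a 1.84-fold fall (log2 −0.88, SE 0.183, adjusted p = 0.00462). For SLC3A2 this is the opposite sign to that with vehicle. The call held without replicate 1 of either group and was lost without each of the other 4 libraries and without replicate 2 of every group (−0.77, adjusted p = 0.105). That of SLC7A5 held throughout.

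PSAT1 (156 ± 2.75 against 266 ± 69.4 CPM, log2 −0.70, adjusted p = 0.0141), SLC6A9 (22.7 ± 4.74 against 43.7 ± 22.0 CPM, log2 −0.89, adjusted p = 0.0518) and PHGDH (141 ± 21.5 against 197 ± 18.7 CPM, log2 −0.42, adjusted p = 0.0653) lay below every uninduced library without passing. With SLC7A5 and SLC3A2 that made 5 of 10, against 23.2% of all genes in that direction. ASNS (log2 0.11, 95% interval −0.37 to 0.59) and MTHFD2 (−0.01, −0.43 to 0.41) overlapped. Of the 16 other transporters 8 fell and none rose, with a median of −1.01, among them SLC1A4 (by 1.74), SLC7A8 (by 1.73), SLC7A2 (by 1.69) and SLC1A5 (by 1.19). By edgeR and by DESeq2 0 of 12 synthesis genes and 0 of 19 folate genes passed. An unadjusted p below 0.05 by edgeR was found for 4 of each list and for 5112 of all 14358 genes. Of the PERK-ATF4 genes VLDLR, STC2 and DDIT3 fell, by 1.29, 0.96 and 0.71.

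Between 100 and 10 ng/mL under thapsigargin, where 5.32% of the 14493 genes fell and 0.235% rose, the same 2 genes fell, SLC7A5 by 1.61 (SE 0.165, adjusted p = 0.000325) and SLC3A2 by 0.90 (SE 0.192, adjusted p = 0.00857). The median of the 10 was −0.52. Groups lay apart for 7 of the 10, each with lower values at 100 ng/mL, against 20.7% of all genes. ASNS was at 0.15 and MTHFD2 at −0.10, and these overlapped. Without any 1 of the 3 Low ERN2 stress libraries, or replicate 2 or 3 of the High ERN2 stress group, the count was 1, without High ERN2 stress replicate 1 it was 3, and without replicate 2 of every group it was 0, where SLC7A5 was −1.41 (adjusted p = 0.0368). At 10 against 0 ng/mL under thapsigargin no gene of the 14509 passed by edgeR (0.00%). Of these genes 612 had an unadjusted p below 0.05, 1 of them among the 10. DESeq2 called 33 of all genes (0.227%) and 0 of the 10. Even ERN2, the induced transgene, did not pass by edgeR (log2 2.42, SE 0.384, adjusted p = 0.292), although its groups lay apart. The lack of edgeR calls among the 10 therefore does not show equal levels at these doses. The labels do not say that replicate numbers mark a batch, but same-numbered libraries correlated here in these same data. With the number as a block, 3.89% of genes passed and SLC7A5 was the only one of the 10. It fell by 0.37 (SE 0.0647, adjusted p = 0.000855, against 0.978 without the block), from 369 ± 62.9 to 285 ± 49.4 CPM. The comparisons of doses share libraries, as do those of thapsigargin with vehicle, so their values stand side by side and are not independent of each other.

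SLC7A5 and SLC3A2 form one transporter, so their mRNAs were also set against each other per kilobase of transcript. The SLC7A5 level over the SLC3A2 level was 0.979, 1.19 and 1.11 in uninduced vehicle-treated libraries. With thapsigargin alone it was 0.502, 0.567 and 0.518, and with 10 ng/mL alone 0.718, 0.648 and 0.505. At 10 ng/mL with thapsigargin the ratio was 0.443, 0.453 and 0.334. At 100 ng/mL it was 0.198, 0.187 and 0.233 with vehicle and 0.215, 0.267 and 0.285 with thapsigargin, ranges that overlap. The mean thus went from 1.10 ± 0.108 to 0.206 ± 0.0241 over the doses with vehicle. With 3 libraries a group, the smallest two-sided p of an exact permutation test is 0.10, and no p is given for the ratio. SLC7A11, which pairs with the same heavy chain, had a ratio to it of 0.0310 ± 0.0114 in uninduced vehicle-treated cells, 0.0195 ± 0.00772 at 10 and 0.0199 ± 0.00870 at 100 ng/mL with vehicle. With thapsigargin this ratio was 0.0517 ± 0.0210, 0.0532 ± 0.0192 and 0.0864 ± 0.0384 at 0, 10 and 100 ng/mL.

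**Figure D5:**
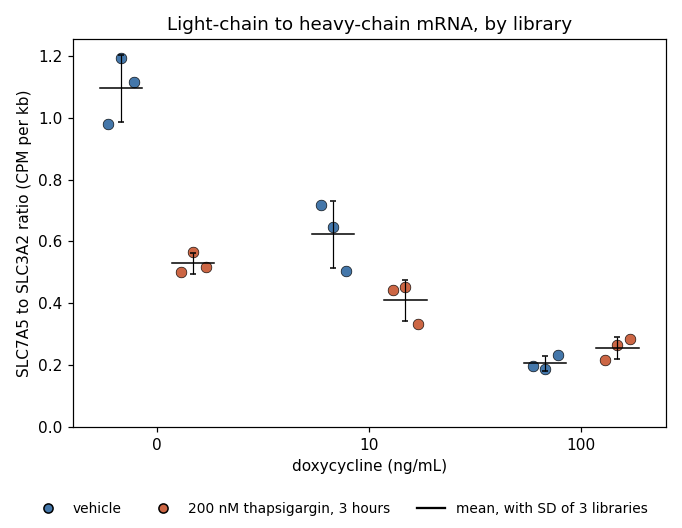
SLC7A5 level over SLC3A2 level, both in CPM per kilobase, in each library by doxycycline dose, with vehicle (blue) and thapsigargin (red). Bars are means with the SD of 3 libraries. With vehicle the mean goes from 1.10 at 0 to 0.624 at 10 and 0.206 at 100 ng/mL.

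Across the 6 groups the mean CPM per kilobase of transcript was highest for SHMT2, from 72.5 to 164, and SLC3A2, from 48.2 to 154. PSAT1 ran from 27.1 to 121, PHGDH from 54.6 to 87.5, SLC7A5 from 18.0 to 81.4, ASNS from 17.3 to 54.7, PSPH from 9.50 to 18.7, and MTHFD2 reached 44.4. SLC6A9 (1.86 to 16.7) and SLC7A11 (1.21 to 8.16) were the lowest on this scale and also the most variable, with highest over lowest group means of 9.00 and 6.74. SLC7A5 followed at 4.53 and PSAT1 at 4.48, while PHGDH was the steadiest at 1.60.

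The groups ranked differently for different genes. For PSAT1 the order of the mean level was High, Low and No ERN2 control, then High, Low and No ERN2 stress, and each neighbour lay apart from the next except the last pair, which overlapped. For SLC7A5 both High ERN2 groups came lowest and overlapped each other, and the Low and No ERN2 control groups followed, each apart from the group below it. The 2 remaining stress groups were the highest. ASNS, MTHFD2, SLC7A11, PSPH, SLC6A9 and SHMT2 had the 3 control groups at the bottom and the 3 stress groups at the top, with a gap between them. For ASNS, MTHFD2, SLC7A11 and PSPH, neighbours on each side of that gap overlapped, although groups that were not neighbours could lie apart, as Low and High ERN2 control did for ASNS and MTHFD2 and Low and High ERN2 stress for PSPH. Among the neighbours of SLC6A9, High ERN2 stress lay apart below No ERN2 stress. Among those of SHMT2, No ERN2 control lay apart below High ERN2 control, and its Low and High ERN2 stress groups, which were not neighbours, were apart as well. SLC3A2 had the High ERN2 stress group among the control groups, and for PHGDH every group overlapped the next.

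Likeness was measured as the root mean square difference between centred log2 group means over the 6 groups, for the 3 genes of the widest range and 15023 genes. Nearest to SLC6A9 were STC2 (0.126) and ADM2 (0.182), nearest to SLC7A5 were GPR50 (0.144) and GRIN2D (0.175), and nearest to SLC7A11 were ZSCAN12P1 (0.199) and FAM115C (0.230). Among the 10 genes themselves, PSPH and SHMT2 were the closest pair (0.0948), SLC6A9 and SLC7A11 were nearest to each other (0.307), and SLC7A5 stood farthest from any other (0.623, to PHGDH).

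Some counts can hold reads of neighbours, since how strand was treated in counting is not given in the sources used here. In GENCODE 29 (GRCh38), MTHFD2 (chromosome 2, 74198562 to 74217565) shares 1324 exon bases with SLC4A5 on the other strand, SLC7A11 (chromosome 4, 138164097 to 138242349) shares 865 with SLC7A11-AS1, SHMT2 427 with AC137834.2, SLC6A9 404 with CCDC24 and SLC7A5 (chromosome 16, 87830023 to 87869488) 271 with AC126696.2. ASNS shares 1985 exon bases with AC079781.5 on its own strand. SLC7A5 also has near-identical copies, of which SLC7A5P2 held 19 to 72 and SLC7A5P1 7 to 57 counts per library, so reads could be split between them.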

How the data were processed

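RNA of 18 libraries of HEK293doxERN2 cells was prepared with a stranded mRNA kit and sequenced in 75-cycle single-end reads. Raw read counts per gene symbol, which the authors made with STAR within VIPER, were deposited, and the submitters' processing notes name hg38, STAR and DESeq2 without versions, and the annotation and strand setting are not given in the sources used here. The table has 25435 rows (28 with a symbol turned into a date), and no column of values was left out. Groups and replicate numbers came from the labels. Replicates differed beyond sampling noise (chi-square per degree of freedom of 7.33 to 63.8 over pairs), so all were kept as separate.

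Each comparison used its own groups. Genes passed filterByExpr at a minimum count of 10, were normalised by TMM, and edgeR 4.0.16 (R 4.3.3) gave quasi-likelihood p-values (glmQLFit and glmQLFTest). These were adjusted over every gene in the fit by the Benjamini-Hochberg method, at a threshold of 0.01. SEs were taken as the absolute log2 fold change divided by the root of F, and 95% intervals use the test's degrees of freedom. Interactions used 12 libraries. Levels per kilobase use the longest APPRIS principal transcript of GENCODE 29. Figures used matplotlib 3.10.9.

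The 10 genes and the lists were chosen with earlier results of these data known. All 10 were tested in each comparison, but in several comparisons the text names only some of them, so the genes named there are a selection. From each other list, up to 4 genes with the smallest adjusted p are named among those that passed for thapsigargin without doxycycline or for 100 against 0 ng/mL with vehicle, as are ATF4, DDIT3, ERN2 and HSPA5. Some genes of these lists are not reported here. CDX2 and LGR5 lie outside this rule and were named after their values were seen.

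Deviations of same-numbered libraries from their group means correlated above 0.1 in every pair only for 10 against 0 ng/mL under thapsigargin (0.343 to 0.467). This is a hint from the same data to which the block was fitted, and the labels name no batch. On simulated counts with 2-fold changes, edgeR recovered 81.6% of 196 changed genes among 14278 for thapsigargin without doxycycline (1.84% of calls false). For the interaction at 100 ng/mL it recovered 18.8% of 197 among 14632 (5.13% of calls false). DESeq2 1.42.0 recovered 81.1% and 44.2% (1.85% and 5.43% of calls false). Alternatives were DESeq2, RLE size factors, no filter, all 6 groups in 1 fit, the replicate block, a threshold of 0.05 and each library left out.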

Additional observations from a re-analysis of the deposited data

Results flagged for a closer look

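HSPA5, the ER chaperone BiP, is a check of the treatment rather than one of the 10 genes. It narrowly passed the test of a different response to thapsigargin at 100 than at 0 ng/mL doxycycline. The difference between its log2 responses was −1.58 (SE 0.219, adjusted p = 0.00897 by edgeR), and over its alternatives the adjusted p ran from 6.8e-09 to 0.0874. The call held in 8 of 18 alternatives, among them 4 of the 13 with libraries left out, so it depends on the processing. HSPA5 was 510.4 ± 34.2 CPM with vehicle and 3687 ± 989.5 CPM with thapsigargin in uninduced cells, and 915 ± 61.5 and 2033 ± 141 CPM at 100 ng/mL (n = 3 each).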

How the results depend on the processing

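No value past the threshold in either fit changed sign. Of 1728 values for the 10 genes, HSPA5 and ERN2 over the alternatives, 96 lost their call and 60 gained one, and 88 that passed in neither fit changed sign, lying between −0.36 and 0.48 under the alternative (80 of them with libraries left out). Among these, MTHFD2 in the interaction at 100 ng/mL went from 0.04 to −0.03 by DESeq2 and to −0.08 with all 6 groups in 1 fit. With thapsigargin at 100 ng/mL (3 of the 10 genes), 6 passed at an adjusted p of 0.05, 5 without the filter, 5 with all 6 groups in 1 fit, 6 by DESeq2 and 0 with the replicate block. For 100 against 10 ng/mL with vehicle (1 gene) the replicate block gave 3, for 10 against 0 under thapsigargin (0) it gave 1, and for 100 against 10 under thapsigargin (2) it gave 1. The last also gave 5 at 0.05, 1 with RLE, 4 with all 6 groups and 4 by DESeq2, and 100 against 0 under thapsigargin (2) gave 4 without the filter. The interaction at 100 ng/mL (0) gave 1, SLC3A2, at 0.05, with RLE, without the filter, with all 6 groups and by DESeq2. With the replicate block SLC3A2 also lost its call for 100 against 0 ng/mL with vehicle (adjusted p = 0.0179). Leaving out libraries gave 6 to 9 genes for thapsigargin without doxycycline (6 without No ERN2 control replicate 1), 0 to 8 at 10 and 0 to 6 at 100 ng/mL. For doses with vehicle it gave 0 to 3 (10 against 0), 3 to 3 (100 against 0) and 0 to 1 (100 against 10), under thapsigargin 0 to 0, 1 to 4 and 0 to 3, and for the interactions 0 to 0 and 0 to 1. The spread of 3 libraries per group limits precision more than depth does. The cause of these shifts was not tested. For most of these settings the share of all genes that passed is not reported here. The counts therefore show only how calls shift with the setting.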
